A study of Mus musculus with 66 samples.

Results

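The proteasome genes of the mouse were followed in the developing testis. They were taken as every annotated gene whose symbol starts with Psma, Psmb, Psmc, Psmd, Psme, Psmf or Psmg and a digit. The rule found 49 genes on 85 probe sets that each name 1 gene, and 46 of them, on 71 probe sets, reached a signal of 50 on at least 2 arrays of their type. They stand among 13472 genes that passed the same filter. Psmd2, a large scaffold of the regulatory particle, did not pass, with a highest signal of 46.1. The inducible catalytic subunit Psmb9 and the thymus subunit Psmb11 did not pass either, with highest signals of 33.0 and 47.6. Psme2 has probe sets only together with its near copy Psme2b, so it is described beside the members but not counted. Psmc3ip and Psme3ip1 match by symbol only. Psmc3ip encodes a meiotic recombination protein and Psme3ip1 a nuclear partner of an activator, and 44 of the 46 genes have a role in the proteasome itself.

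The proteasome degrades proteins that carry ubiquitin chains. Its 20S core is a barrel of stacked rings, in which alpha subunits form the outer gate and beta subunits hold the proteolytic sites. The 19S particle caps the core, recognises ubiquitin, removes it and unfolds the substrate with a ring of ATPases. Other caps open the core without ubiquitin recognition. In the testis, germ cells make a variant of 1 alpha subunit, Psma8, from meiosis onwards, and the activator encoded by Psme4 is known for the breakdown of acetylated histones in spermatids.

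Total testis RNA came from BL/6-129 mice at 11 ages, and each of the 2 numbered samples of a day was measured on 3 kinds of array, named A, B and C in what follows, with 22 arrays each. No treatment or induced mutation is named for any group. Days 0, 3, 6, 8 and 10 after birth (10 samples) precede most of meiosis, days 14, 18 and 20 (6 samples) hold spermatocytes, and days 30, 35 and 56 (6 samples) hold spermatids as well. These are called the premeiotic, meiotic and spermatid days. The labels do not say whether the samples were separate animals or pools, so the p-values measure only the spread between these samples.

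Signals are linear array intensities scaled by the authors to a mean of 125, and changes are differences of log2(signal + 16) ± SE from a limma fit over all 22 arrays of a type. A gene was called higher or lower at an adjusted p under 0.05 over all 13472 genes. Since whole testes were used, fewer cells of a type and less RNA per cell cannot be told apart, and every change is relative to the other signals of an array. The correlation of a day's samples was lowest at day 0 on every array type (0.931, 0.863 and 0.834 on A, B and C) and reached 0.98, 0.96 and 0.951. Proteasome genes were more often higher in sample 1 than in sample 2 of a day. Of the 40 members on type A this held for 24 to 34 at every day from 0 to 30, with 33 at day 0, 32 at day 6 and 34 at day 20, while 45.9%, 50.3% and 48.5% of all genes of that type were higher in sample 1 on those 3 days. At day 35 it held for 14 members and at day 56 for 20. The summed signal of 8 spermatid markers lay between 280 and 1499 on premeiotic days, between 249 and 366 on meiotic days and between 32658 and 55614 on spermatid days. That of 8 spermatocyte markers ranged from 567 to 1150 on premeiotic, from 5678 to 20533 on meiotic and from 17757 to 23443 on spermatid days. The spermatocyte sum thus moved between premeiotic and meiotic days, and the spermatid sum between meiotic and spermatid days. Sertoli cell and endothelial markers were lower on spermatid than on premeiotic days, when 42.2% of all genes were lower. Of 7 Sertoli cell markers 6 fell, with summed signals of 4712 to 7594 on premeiotic and 2598 to 3189 on spermatid days. All 4 measured endothelial markers fell, with sums of 401 to 1142 and 101 to 209. Other somatic markers differed. Of 5 Leydig cell markers 2 rose and 2 fell, with sums of 951 to 3583 and 1547 to 2241. Of 6 measured macrophage markers 2 fell. The part of these cells in the results was not tested. On type A the median ratio of the 5′ to the 3′ Gapdh probe set was 1.22, 1.35 and 1.10 on premeiotic, meiotic and spermatid days. At day 20 it was 1.56 in sample 1 and 1.24 in sample 2, and the same ratio for actin was 0.896 and 0.572. Sample 1 had the higher Gapdh ratio at every day from 3 to 35, and sample 2 at days 0 and 56. The part of these ratios in the results was not tested.

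The upstream sequences of 4 members are shown because they had the largest fall and the 3 largest rises among the members from meiotic to spermatid days: the alpha subunit Psma7, which fell, and the alpha subunit Psma6, the activator Psme4 and the inhibitor Psmf1, which rose. Each is the 250 bases before an annotated start in RefSeq on GRCm38.p6, read 5′ to 3′ on the gene's strand. Capitals mark matches to CCAAT on either strand. Psma7 lies on the minus strand at chr2:180042465-180042714. Psma6 has a pair of annotated starts on the plus strand, at chr12:55383972-55384221 and chr12:55398575-55398824. Psme4 is at chr11:30771525-30771774 on the plus strand and Psmf1 at chr2:151741311-151741560 on the minus strand.
Psma7: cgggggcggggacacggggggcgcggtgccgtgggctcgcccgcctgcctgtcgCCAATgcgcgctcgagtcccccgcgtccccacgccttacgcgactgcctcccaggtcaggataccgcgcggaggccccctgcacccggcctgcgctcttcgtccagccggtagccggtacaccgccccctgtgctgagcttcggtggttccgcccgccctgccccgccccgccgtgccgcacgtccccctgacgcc
Psma6, upstream start: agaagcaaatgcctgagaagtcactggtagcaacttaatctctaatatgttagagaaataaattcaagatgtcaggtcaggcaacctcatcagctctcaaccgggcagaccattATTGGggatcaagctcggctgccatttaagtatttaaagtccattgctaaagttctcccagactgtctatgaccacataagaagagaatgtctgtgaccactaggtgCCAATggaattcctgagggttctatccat
Psma6, downstream start: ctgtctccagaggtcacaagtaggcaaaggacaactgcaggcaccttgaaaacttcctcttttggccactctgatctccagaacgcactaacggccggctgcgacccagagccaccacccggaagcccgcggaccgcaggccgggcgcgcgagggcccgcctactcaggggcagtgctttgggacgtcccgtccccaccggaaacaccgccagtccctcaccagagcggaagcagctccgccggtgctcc
Psme4: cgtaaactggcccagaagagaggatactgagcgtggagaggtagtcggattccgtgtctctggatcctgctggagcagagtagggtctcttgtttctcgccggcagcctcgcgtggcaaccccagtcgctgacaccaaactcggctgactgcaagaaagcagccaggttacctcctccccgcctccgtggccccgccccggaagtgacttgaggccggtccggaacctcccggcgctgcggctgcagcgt
Psmf1: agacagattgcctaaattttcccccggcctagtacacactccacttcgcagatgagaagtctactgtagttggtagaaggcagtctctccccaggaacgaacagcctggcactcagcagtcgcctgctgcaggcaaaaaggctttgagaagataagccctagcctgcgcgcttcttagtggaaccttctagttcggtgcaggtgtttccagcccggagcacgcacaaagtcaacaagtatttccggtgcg
The 41 members with a sequence have 44 windows. CCAAT was present in 16 of the 44, among them windows of Psma6 and Psma7, against 33.8% of all 32851 windows. The core of the antioxidant response element, TGACNNNGC, binds the factors encoded by Nfe2l1 and Nfe2l2. It was present in 5 of the 44 (Psmb5, Psmb6, Psmc6, Psmd9 and Psmd12), against 10.2% of all windows. The full cAMP response element, TGACGTCA, was in none of the 44 and in 1.55% of all windows. The core of the interferon-stimulated element (GAAA, any 2 bases, GAAA) was in 3 of the 44 (Psmb3, Psmd4 and Psmd9) against 2.98%. All were searched on both strands. A match is a run of letters and not a measured binding site.

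Over all 11 days, 26 of the 46 members changed by the moderated F-test, 56.5% of them, against 57% of all genes. The members did not move as a block. Between premeiotic and meiotic days 10 members rose and 2 fell, when 18.5% of all genes were higher and 22.8% lower. Between meiotic and spermatid days 7 rose and 22 fell, when 16.2% of all genes were higher and 30.5% lower. From premeiotic to spermatid days 8 rose and 22 fell, against 24.7% and 42.2% of all genes. The 22 are 47.8% of the members, a share near the background of the last comparison. The median change was 0.07, -0.38 and -0.23 among the members in these comparisons, against -0.08, -0.19 and -0.24 among all genes. When arrays were instead brought to a common median within their type, termed scaling to the median here, the medians of all genes became 0.03, -0.07 and -0.01. The members' counts then became 10 higher and 1 lower, 7 and 15, and 13 and 16, the last with Psmc5, Psmd6, Psmd9, Psmg2 and Psmg3 added to those higher. The higher share of all called genes moved with it, from 44.8% to 56.6%, from 34.7% to 45% and from 36.9% to 49.8%.

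**Figure D1:**
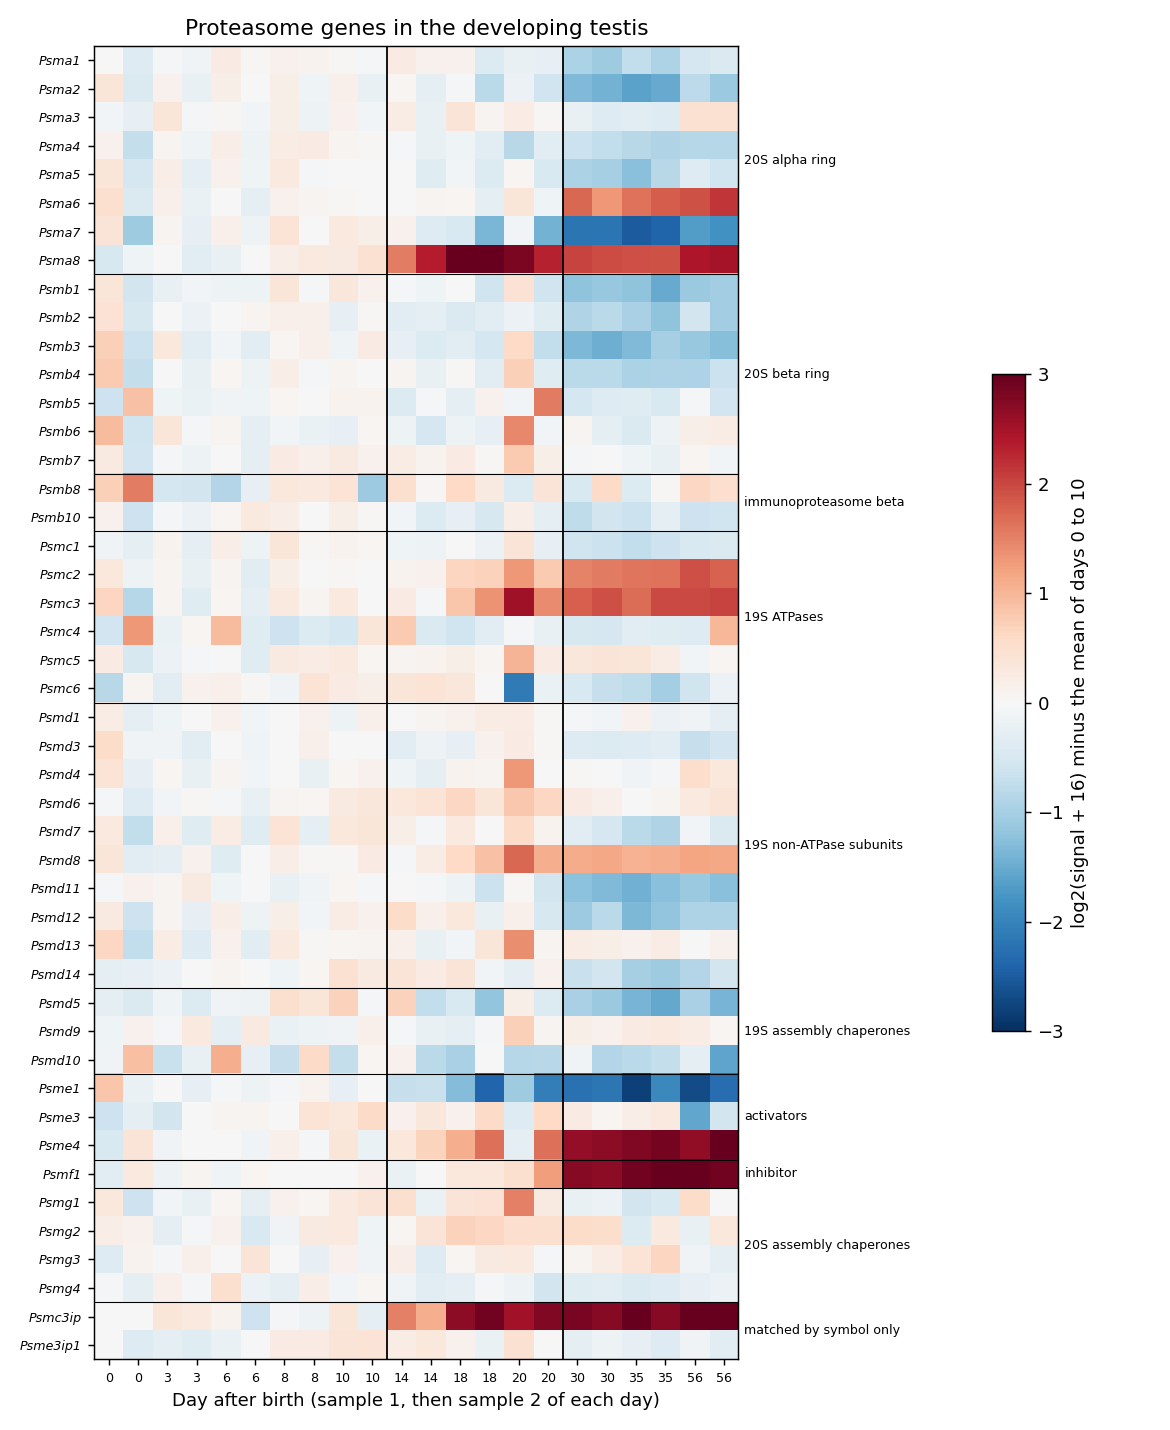
Each line is 1 of the 46 members, grouped by role, and each column 1 of the 22 samples in order of day. Colour gives log2(signal + 16) minus the member's mean over days 0 to 10, red for higher and blue for lower, and values beyond 3 in either direction take the end colour. Psma8 and Psmc3ip turn red from day 14, Psma6, Psme4 and Psmf1 are deep red from day 30, and most alpha and beta subunits are blue from day 30.

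A fold of at least 2 on the shifted scale was reached from premeiotic to spermatid days by 8 members that rose and 8 that fell, against 14.9% and 20.6% of all genes. In the same way 3 rose and 1 fell into meiotic days, against 7.42% and 6.18%, and 4 rose and 4 fell from meiotic to spermatid days, against 9.06% and 7.47%. Those that rose from premeiotic to spermatid days were Psma6, Psma8, Psmc2, Psmc3, Psmd8, Psme4, Psmf1 and Psmc3ip. Those that fell were Psma2, Psma7, Psmb1, Psmb3, Psmd5, Psmd11, Psmd12 and Psme1. For all 8 of the first set, and for 13 of the 22 members that fell, premeiotic and spermatid samples did not overlap, which held for 16.3% of all genes upwards and 22.8% downwards. Premeiotic and meiotic samples did not overlap for 2 members that rose and 1 that fell (4.07% and 4.39% of all genes), and meiotic and spermatid samples for 4 and 12 (8.4% and 11.4%). Each of these 16 members kept its direction and its call from premeiotic to spermatid days under quantile normalization, under scaling to the median and without any 1 sample.

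**Figure D2:**
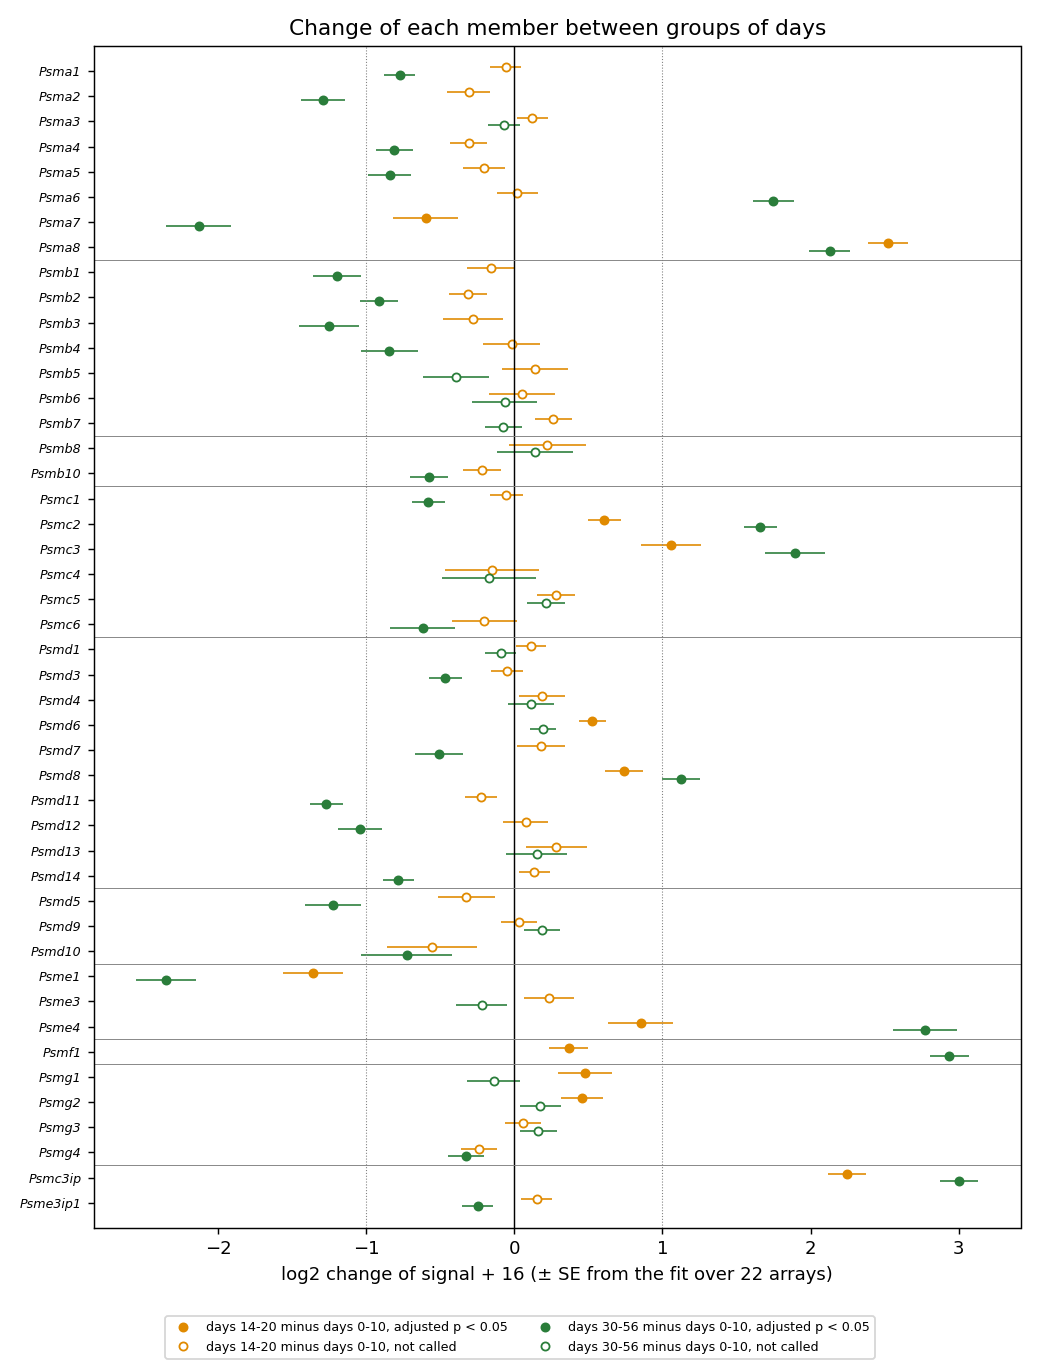
Points give the log2 change of signal + 16 of each member, from days 0 to 10 to days 14 to 20 in orange and to days 30 to 56 in green, with bars for ± SE. Filled points have an adjusted p under 0.05, dotted lines mark 2-fold, and grey lines part the roles. The spermatid-day changes run from -2.35 for Psme1 to 3.0 for Psmc3ip.

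The outer ring of the core held changes in opposite directions. Of its 8 alpha subunits, 5 fell and 2 rose from premeiotic to spermatid days, with a median of -0.79 (-0.57 with scaling to the median). Among all genes 42.2% were lower and 24.7% higher, with a median of -0.24 (-0.01 with scaling to the median). Psma8, the germ cell variant of Psma7, rose with meiosis. It is measured by 1 probe set with a suffix for shared sequence, since its probe set without a suffix did not pass the filter, with a highest signal of 52. Its signal in samples 1 and 2 was 111 and 147 at day 0, 158 and 123 at day 3, 134 and 159 at day 6, 188 and 199 at day 8, and 197 and 225 at day 10. It was 494 and 883 at day 14, 1482 and 1441 at day 18, 1227 and 862 at day 20, 706 and 667 at day 30, 659 and 653 at day 35, and 939 and 977 at day 56. All 12 samples from day 14 on lay above all 10 earlier ones. The rise from premeiotic to meiotic days was 2.52 ± 0.14 (adjusted p = 1.74e-10), 5.75-fold. The signal was lower on spermatid than on meiotic days by 0.40 ± 0.15 (adjusted p = 0.0434), with overlapping samples. Scaling to the median gave -0.18 ± 0.17 (adjusted p = 0.431). The call was also lost in 14 of the 22 fits that left out 1 sample, with adjusted p up to 0.176 without day 14 sample 2. The others were day 20 sample 1 and every sample of days 8, 10, 18, 30, 35 and 56.

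Psma7, whose product sits in the same ring position as that of Psma8, fell in the other direction. Its signal ran from 357 through a median of 827 to 1013 in the 10 premeiotic samples, from 276 through 568 to 830 in the 6 meiotic samples, and from 122 through 154 to 226 in the 6 spermatid samples. The spermatid samples all lay below every earlier sample, while premeiotic and meiotic samples overlapped. The fall was 1.53 ± 0.24 from meiotic to spermatid days, given as a size on the log2 scale (adjusted p = 6.96e-05). Between premeiotic and meiotic days it was 0.60 ± 0.22 (adjusted p = 0.0363), and scaling to the median gave an adjusted p of 0.167. This earlier call was also lost without sample 1 of day 0 (0.0617), 3 (0.0633), 6 (0.0626), 8 (0.0677) or 10 (0.0577) and without sample 2 of day 14 (0.111), 18 (0.146) or 20 (0.157), values in parentheses being adjusted p. At days 0 and 20 sample 1 of Psma7 was far above sample 2, at 995 against 357 and 717 against 276.

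Psma6, another alpha subunit, was flat until day 20 and then rose. Its lowest, median and highest signals were 711, 986 and 1346 on premeiotic, 787, 998 and 1255 on meiotic, and 2392, 3332 and 4295 on spermatid days. The spermatid samples did not overlap with any earlier sample. The change was 0.02 ± 0.14 from premeiotic to meiotic days (adjusted p = 0.931) and 1.73 ± 0.15 from meiotic to spermatid days (adjusted p = 9.30e-08). Psma2 moved against it, from 782, 1119 and 1373 on premeiotic days to 340, 402 and 615 on spermatid days, a change of -1.29 ± 0.15 (adjusted p = 4.87e-07). Psma1, Psma4 and Psma5 fell by less than 2-fold, with changes of -0.77, -0.81 and -0.84. Psma3 changed by -0.07 ± 0.11 (adjusted p = 0.592) on its brightest probe set, which has a suffix for shared sequence, and by -0.81 and -1.51 on both of its other probe sets.

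In the beta ring, 4 of 7 subunits fell from premeiotic to spermatid days and none rose, with a median of -0.84 (-0.61 with scaling to the median). The 4 are 57.1% of the ring, when 42.2% of all genes were lower and 24.7% higher. The median of all genes was -0.24 (-0.01 with scaling to the median). None of the 7 passed the limma test between premeiotic and meiotic days, and 1 had an unadjusted p under 0.05. Psmb1 and Psmb3, which have no catalytic site, fell by at least 2-fold. Psmb1 had 530, 745 and 1002 as lowest, median and highest signal on premeiotic, 506, 724 and 1063 on meiotic and 261, 339 and 371 on spermatid days. Spermatid samples lay below all others, and the change from premeiotic days was -1.20 ± 0.16 (adjusted p = 3.73e-06), with -1.13 on a second probe set. Psmb3 went from 493, 774 and 1291 to 273, 309 and 381, a change of -1.25 ± 0.20 (adjusted p = 3e-05). Psmb2 changed by -0.91 ± 0.13 (adjusted p = 5.67e-06). Psmb4 changed by -0.84 ± 0.19 (adjusted p = 0.000794) on a bright probe set with a suffix for shared sequence and by 0.43 on a dim one. The proteolytic subunits Psmb5, Psmb6 and Psmb7, which carry the chymotrypsin-like, caspase-like and trypsin-like sites, did not pass the test from premeiotic to spermatid days. Their changes were -0.39 ± 0.22, -0.06 ± 0.22 and -0.07 ± 0.13 (adjusted p = 0.126, 0.811 and 0.617), and those of Psmb6 and Psmb7 turned to 0.17 and 0.15 with scaling to the median. With quantile normalization Psmb5 was called lower, at -1.17 ± 0.21 (adjusted p = 7.65e-05), and from meiotic to spermatid days both Psmb5 and Psmb7 were, at -0.91 and -0.44 (adjusted p = 0.0039 and 0.00841). This grouping by catalytic site was made after the values were seen. The probe sets that represent Psmb5 and Psmb7 have a suffix for shared sequence. Day 20 sample 1 of Psmb6 stood at 1778, against 609 in sample 2. Psmb5, represented on type B, stood at 842.5 and 2410.9 in samples 1 and 2 of day 0 and at 1231 and 3869.5 at day 20. Its brighter type A probe set had the opposite order, at 1059.4 and 375.3 and at 1629.2 and 685.5.

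Interferon-inducible beta subunits replace the catalytic ones in immune cells and generate peptides for antigen presentation. Of these only Psmb8 and Psmb10 passed the signal filter. Psmb10 fell from 98.2, 166 and 201 on premeiotic to 88.4, 100.05 and 128 on spermatid days, a change of -0.58 ± 0.13 (adjusted p = 0.000742) with overlapping samples. Psmb8 was dim, with 12.9, 47.4 and 161 on premeiotic days, and its change was 0.14 ± 0.26 (adjusted p = 0.65). Neither changed by the F-test over days. The activator subunit Psme1, which works with these subunits, is described with the other caps. Of 9 measured antigen presentation genes, 4 rose and 3 fell from premeiotic to spermatid days, against 24.7% and 42.2% of all genes. B2m, the light chain of class I molecules, changed by -1.45 ± 0.20 (adjusted p = 4.26e-06), the interferon factor Irf1 by -0.83 ± 0.16 (adjusted p = 0.000173) and the peptide transporter gene Tap2 by -0.74 ± 0.19 (adjusted p = 0.00216). The class I heavy chain genes H2-K1 and H2-D1 moved the other way, by 1.00 ± 0.10 and 1.03 ± 0.11, on probe sets that may share sequence within that family. Of 6 measured macrophage markers, 2 fell, and their summed signal ranged from 557 to 876 on premeiotic and from 516 to 596 on spermatid days. Of 5 lymphocyte markers 1 passed the signal filter. The part of these cells in the results was not tested.

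Among the 6 ATPases of the 19S particle, 2 rose and 2 fell from premeiotic to spermatid days, against 24.7% and 42.2% of all genes. Psmc2 rose in each phase. Its lowest, median and highest signals were 430, 547 and 672 on premeiotic, 581, 860 and 1337 on meiotic and 1526, 1674 and 2110 on spermatid days, and the spermatid samples lay above all others. The rise was 0.61 ± 0.11 into meiotic days (adjusted p = 0.000232) and 1.05 ± 0.12 from there to spermatid days (adjusted p = 2.54e-06), 3.16-fold in all. Psmc3 was at 205, 403 and 612 on premeiotic, 372, 844 and 2325 on meiotic and 1267, 1532 and 1599 on spermatid days. Its highest value was day 20 sample 1, against 1049 in sample 2 of that day. The change from premeiotic to spermatid days was 1.90 ± 0.20 (adjusted p = 2.14e-07). It rests on probe sets with suffixes, only some of them for shared sequence, which gave 1.90, 1.82, 1.62 and 0.68. The only probe set of the gene without a suffix gave -0.19. Psmc1 changed by -0.58 ± 0.11 (adjusted p = 0.000205) and Psmc6 by -0.62 ± 0.22 (adjusted p = 0.0197). A second probe set of Psmc6, on type B with a mean signal of 156, gave -1.48. The Psmc6 call was lost without day 30 sample 2 (0.0528), day 35 sample 2 (0.0541) or day 56 sample 1 (0.0648). Psmc4 and Psmc5 changed by -0.17 ± 0.32 and 0.21 ± 0.13 (adjusted p = 0.646 and 0.153). Psmc4 was dim, with a mean signal of 23.6 and most samples under 50, so a change of it could hardly be measured. A second, dim probe set of Psmc5, with a mean signal of 32.1, gave -0.51. With scaling to the median Psmc6 was no longer called (-0.39, adjusted p = 0.0966) and Psmc5 was called higher (0.44, adjusted p = 0.0273).

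**Figure D3:**
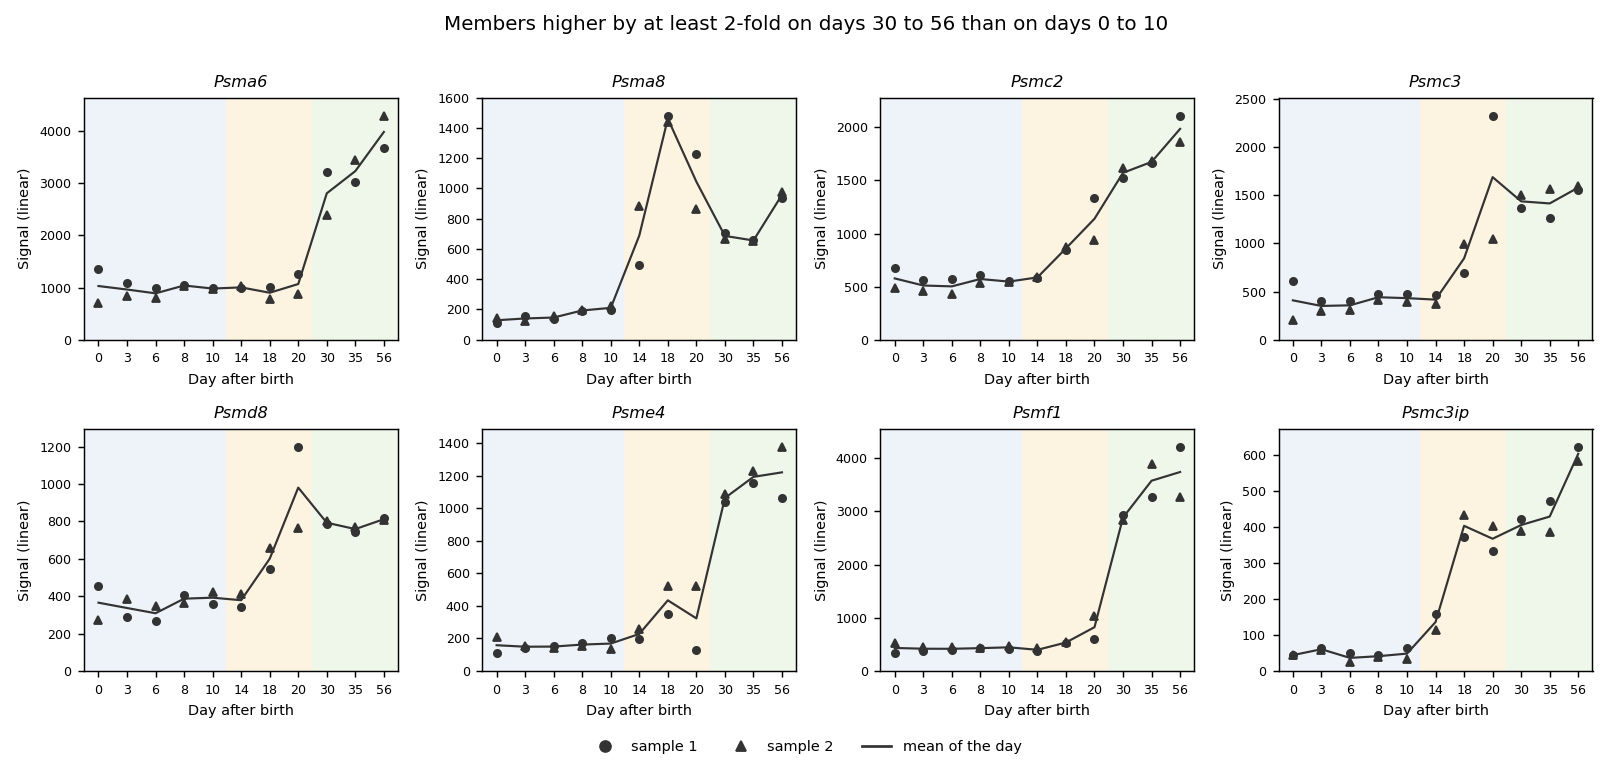
Signal on a linear scale against day after birth for the 8 members that rose by at least 2-fold from days 0 to 10 to days 30 to 56, with circles for sample 1, triangles for sample 2 and a line through the day means. Blue, orange and green shading marks days 0 to 10, 14 to 20 and 30 to 56. Psma8 and Psmc3ip rise at days 14 and 18, Psma6, Psme4 and Psmf1 mainly between days 20 and 30.

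Of the 10 non-ATPase subunits of the 19S particle, 5 fell and 1 rose from premeiotic to spermatid days, with a median of -0.28 (-0.05 with scaling to the median). The 5 are 50% of these subunits, a share near the 42.2% of all genes that were lower, and 24.7% were higher. The median of all genes was -0.24 (-0.01 with scaling to the median). Psmd8, a lid subunit that joins late in assembly, rose from 269, 362 and 456 on premeiotic to 343, 600.4 and 1199 on meiotic and 746, 793 and 817 on spermatid days. Premeiotic and spermatid samples did not overlap. The change to spermatid days was 1.12 ± 0.13 (adjusted p = 5.89e-07), of which 0.74 ± 0.13 came between premeiotic and meiotic days (adjusted p = 0.000174). Psmd6, also a lid subunit, rose by 0.53 ± 0.09 into meiotic days (adjusted p = 0.000129) and then fell by 0.33 ± 0.10 (adjusted p = 0.0111). The latter was at an adjusted p of 0.168 with scaling to the median.

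The lid scaffolds Psmd11 and Psmd12 fell from meiotic to spermatid days. Psmd11 was at 436, 509 and 625 on premeiotic, 320.1, 479 and 525 on meiotic and 178, 205 and 228 on spermatid days, with no spermatid sample reaching any earlier one. Its change from premeiotic days was -1.27 ± 0.11 (adjusted p = 1.32e-08), but its other probe sets gave -0.13 and -0.09. At day 56 these other probe sets stood at 145.5 and 194.7 and at 20.2 and 25.9, below their samples of days 30 and 35. Psmd12 was at 146, 255 and 285, then 163, 262 and 351, then 83.0, 109 and 127, with spermatid samples again below all others. It changed by -1.04 ± 0.15 (adjusted p = 7.80e-06), on a lone probe set with a suffix for shared sequence. Psmd14, the deubiquitinase of the lid, changed by -0.78 ± 0.10 (adjusted p = 3.54e-06). Psmd3 and Psmd7 also fell, by less than 2-fold, and both calls were lost with scaling to the median (adjusted p = 0.151 and 0.208). The large base subunit Psmd1, the ubiquitin receptor Psmd4 and the lid subunit Psmd13 changed by -0.09, 0.12 and 0.15 and did not pass the test.

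Chaperones that assemble the 19S base gave 2 falls among 3 members from premeiotic to spermatid days, when 42.2% of all genes were lower. Psmd5 went from 229.7, 291 and 518 on premeiotic to 99.0, 125 and 154 on spermatid days, without overlap, a change of -1.23 ± 0.19 (adjusted p = 1.96e-05). Its other probe sets gave -0.38 and -1.12. Psmd10, which is X-linked, changed by -0.73 ± 0.31 (adjusted p = 0.0438) on a dim probe set with a suffix and by 0.25 on another. Its call was lost in 9 of the 22 fits without 1 sample, with adjusted p up to 0.177 without day 56 sample 2. The others were sample 2 of days 0, 3, 8, 10, 30 and 35 and sample 1 of days 6 and 35. Psmd9 changed by 0.19 ± 0.12 (adjusted p = 0.177). Under both other scalings Psmd10 was not called (-0.47 and -0.49, adjusted p = 0.177 and 0.167 with scaling to the median and quantile normalization) and Psmd9 was called higher (0.41 and 0.32, adjusted p = 0.0117 and 0.0263), which makes 1 fall and 1 rise among the 3.

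**Figure D4:**
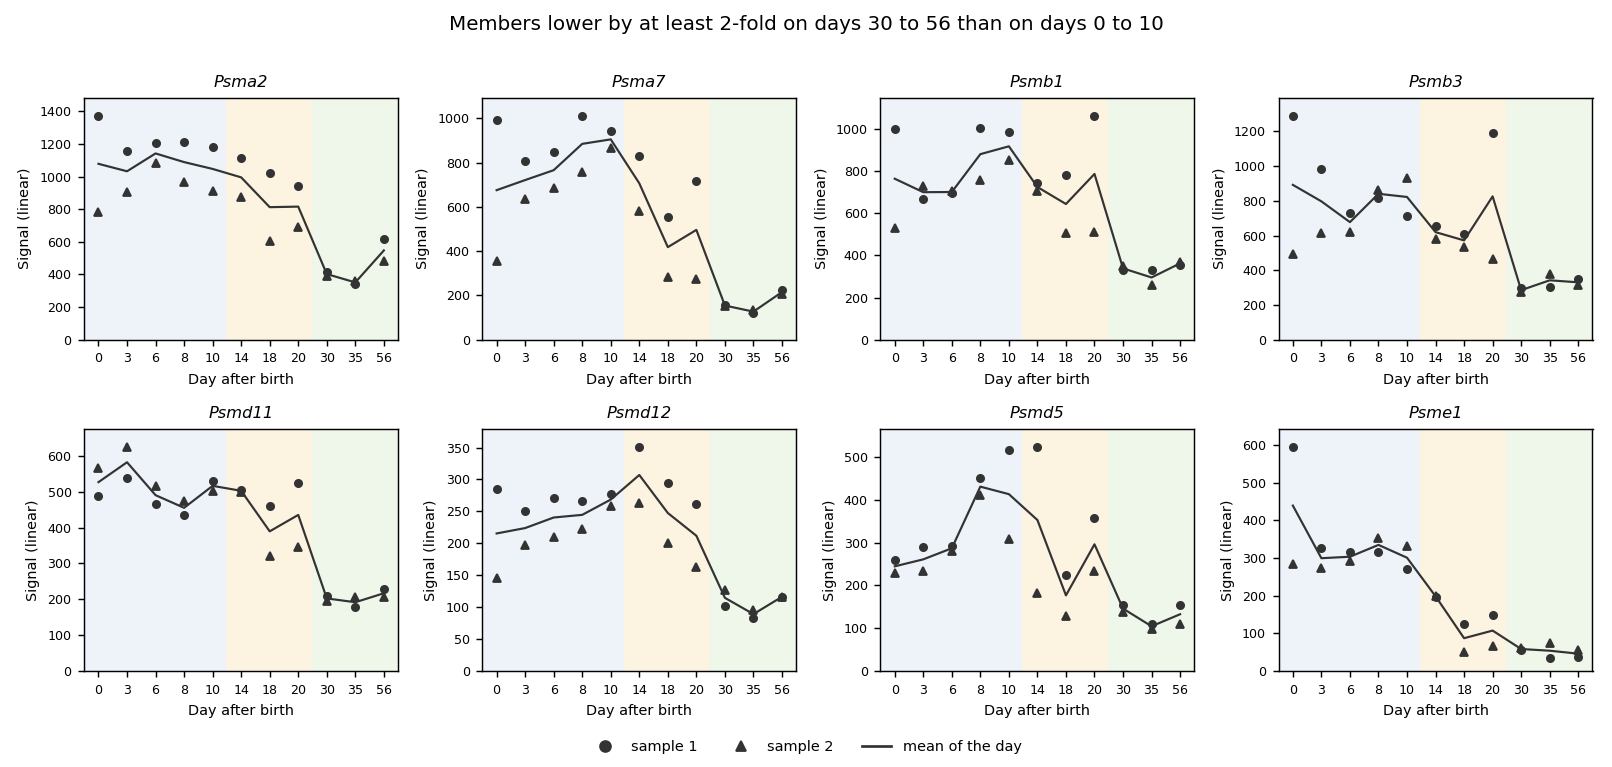
Signal on a linear scale against day after birth for the 8 members that fell by at least 2-fold from days 0 to 10 to days 30 to 56, drawn as circles for sample 1, triangles for sample 2 and a line through the day means. Blue, orange and green shading marks days 0 to 10, 14 to 20 and 30 to 56. Psme1 is already lower at days 14 to 20, and the samples of Psma7 differ widely at days 0 and 20.

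Among the activators, the caps other than the 19S particle, Psme1 fell, Psme4 rose and Psme3 did not pass the test. Psme1, a subunit of the interferon-inducible activator, fell in each phase. Its lowest, median and highest signals were 271, 316 and 595 on premeiotic, 49.9, 136 and 200 on meiotic and 33.2, 55.3 and 74.3 on spermatid days. No meiotic or spermatid sample reached a premeiotic one. The change was -1.36 ± 0.20 into meiotic days (adjusted p = 3.45e-05) and -2.35 ± 0.20 from premeiotic to spermatid days (adjusted p = 1.36e-08). The probe set that names its partner Psme2 together with Psme2b followed the same course, from 222, 321 and 372 to 119, 207 and 266 and then 72.3, 86.7 and 114. It changed by -1.66 ± 0.12 from premeiotic to spermatid days (unadjusted p = 1.46e-10). The nuclear activator Psme3 changed by -0.22 ± 0.17 (adjusted p = 0.263). At day 56 its samples were at 52.8 and 121, against 196 to 231 at days 30 and 35, a difference that did not pass the test.

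Psme4, the activator of spermatid histone breakdown, rose. It was at 108, 153 and 208 on premeiotic, 126, 302 and 519.5 on meiotic and 1041, 1119 and 1377 on spermatid days, and all spermatid samples lay above all others. The change was 0.85 ± 0.22 into meiotic days (adjusted p = 0.0044), 1.92 ± 0.24 from there to spermatid days (adjusted p = 6.85e-06) and 6.83-fold in all. At day 20 its samples were at 126 and 519.5. A dim probe set of the gene on array type C, with a suffix, gave -0.06 from premeiotic to spermatid days.

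Psmf1, the proteasome inhibitor that binds the core and acts in its regulation, rose by 2.57 ± 0.15 from meiotic to spermatid days (adjusted p = 9.26e-11). Its signal was 338, 429 and 528 on premeiotic, 368, 535 and 1043 on meiotic and 2837, 3269.95 and 4216 on spermatid days. The spermatid samples did not overlap with the others, and the change from premeiotic days was 7.66-fold. Between premeiotic and meiotic days it was 0.37 ± 0.13 (adjusted p = 0.0317), a call lost in 8 of the 22 fits without 1 sample, with adjusted p up to 0.126 without day 20 sample 2. The others were sample 1 of days 0, 3, 6, 10 and 18 and sample 2 of days 14 and 18. The rise was seen on the brightest probe set alone: the other 3 probe sets of the gene, with mean signals of 114 or less, gave 0.05, 0.21 and -0.37 from premeiotic to spermatid days.

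**Figure D5:**
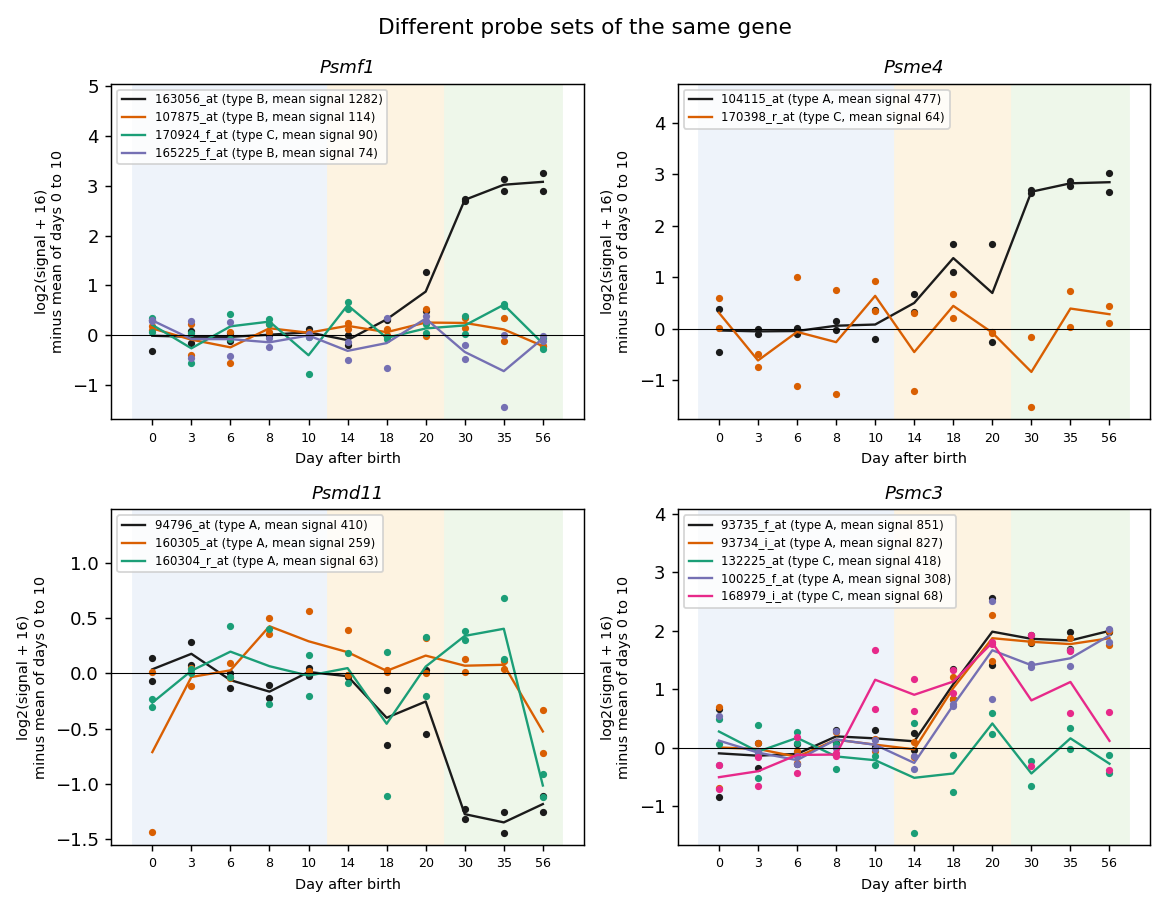
Log2(signal + 16) minus its mean over days 0 to 10 against day after birth, for every probe set that passed the filter of 4 members whose probe sets differ, with a dot for each sample and a line through the day means. Blue, orange and green shading marks days 0 to 10, 14 to 20 and 30 to 56, and keys give the array type and mean signal. The brightest probe set of Psmf1 and Psme4 departs from the others on days 30 to 56. That of Psmd11 does so at days 30 and 35, while at day 56 its other probe sets are lower too. For Psmc3 the type C probe set with a mean signal of 418 stays near 0.

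Of the 4 chaperones that assemble the core rings, 2 rose into meiotic days, against 18.5% of all genes. From premeiotic to spermatid days 1 fell and none rose, against 42.2% and 24.7% of all genes. Psmg1 and Psmg2, which pair on the alpha ring, rose into meiotic days by 0.48 ± 0.18 and 0.46 ± 0.14 (adjusted p = 0.0426 and 0.0138). The Psmg1 call was lost in 16 of the 22 fits without 1 sample, with adjusted p up to 0.191 without day 20 sample 1, and that of Psmg2 without day 14 sample 2 (0.0543). The other fits that lost Psmg1 lacked sample 2 of day 0 or 6, sample 1 of day 14 or any sample of days 3, 8, 10, 18, 30 and 35. From meiotic to spermatid days Psmg1 was called lower, at -0.62, when 30.5% of all genes were lower. That call was lost with quantile normalization (-0.47, adjusted p = 0.0675) and scaling to the median (-0.53, adjusted p = 0.0799). It was also lost without day 14 sample 1 (-0.50), day 20 sample 1 (-0.41) or day 56 sample 2 (-0.52), values in parentheses being changes. From premeiotic to spermatid days Psmg1, Psmg2 and Psmg3 changed by -0.14, 0.18 and 0.16 and did not pass the test. Scaling to the median called Psmg2 and Psmg3 higher, both at 0.39 (adjusted p = 0.0373 and 0.0122), and quantile normalization called Psmg2 higher, at 0.38 (adjusted p = 0.0294). Psmg4 changed by -0.33 ± 0.12 (adjusted p = 0.0233). This was lost with scaling to the median (0.537) and without day 6 sample 1 (0.0526), day 8 sample 2 (0.0532), day 30 sample 1 (0.0525), day 35 sample 1 (0.0545) or day 56 sample 1 (0.0521).

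Psmc3ip, the recombination protein matched by symbol, rose at the same ages as Psma8. It was at 23.6, 44.0 and 62.7 on premeiotic, 113, 352 and 434 on meiotic and 386, 446 and 622 on spermatid days, and no later sample overlapped with a premeiotic one. The change was 2.25 ± 0.13 into meiotic days (adjusted p = 5.37e-10) and 3.0 ± 0.13 from premeiotic to spermatid days (adjusted p = 1.50e-12). Psme3ip1 changed by -0.40 ± 0.12 from meiotic to spermatid days (adjusted p = 0.00986). Quantile normalization gave -0.27 (adjusted p = 0.0779) and scaling to the median -0.31 (adjusted p = 0.0992). Its change of -0.25 from premeiotic to spermatid days was called as reported. That call was lost in 15 of the 22 fits without 1 sample and under both other scalings (-0.14 and -0.03). Psme3ip1 was the only member called between days 0 and 3 and days 8 and 10. It was higher by 0.58 ± 0.14 (adjusted p = 0.0158), when 5.24% of all genes were higher. No member was lower there, also at an unadjusted p under 0.05, against 4.05% of all genes.

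Steps between neighbouring days placed the changes. Between days 10 and 14 Psma8 and Psmc3ip rose, by 1.58 ± 0.27 and 1.26 ± 0.25 (adjusted p = 0.00427 and 0.0221), when 0.705% of all genes were higher. Between days 14 and 18 the same members rose again, by 1.12 ± 0.27 and 1.48 ± 0.25 (adjusted p = 0.0159 and 0.00148), against 4.73% of all genes. Between days 20 and 30, 3 members rose and 6 fell, against 5.58% and 3.96% of all genes. Those that rose were Psmf1 (1.84 ± 0.25, adjusted p = 5.24e-05), Psma6 (1.39 ± 0.27, 0.0022) and Psme4 (1.97 ± 0.42, 0.00573). Those that fell were the core subunits Psma1 (-0.78), Psma2 (-0.98), Psma7 (-1.44), Psmb1 (-1.09) and Psmb3 (-1.33) and the lid subunit Psmd11 (-1.02 ± 0.21, adjusted p = 0.00408). None of the 46 was called in the other 7 steps or between days 30 and 35 and day 56, where at most 3 of all 13472 genes were called in a direction. At an unadjusted p under 0.05 limma gave 0 to 5 members in each of these steps and 7 in the last comparison.

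With 2 samples a day, leaving out 1 leaves a lone sample that is assumed to vary like the others, and many step calls were then lost. For Psma8 this was so between days 10 and 14 without day 10 sample 1 (0.0772) or day 14 sample 2 (0.161), and between days 14 and 18 without day 14 sample 1 (0.247), day 18 sample 1 (0.0644) or day 18 sample 2 (0.0558). Psmc3ip lost the earlier step without day 10 sample 2 (0.383), day 14 sample 1 (0.317) or day 14 sample 2 (0.0583). In the step to day 30, Psma6 was lost without day 30 sample 1 (0.053), Psmd11 without day 30 sample 2 (0.0503), and Psme4 without day 20 sample 1 (0.0593) or day 30 sample 2 (0.0516). Scaling to the median left 2 of the 6 falls in that step, Psma1 and Psmd11, with adjusted p of 0.0783, 0.0733, 0.0777 and 0.0825 for Psma2, Psma7, Psmb1 and Psmb3. Quantile normalization lost Psma1 (0.051) and Psma7 (0.0694) and added Psmb4 (0.0381). Without day 20 sample 1, in which most members on type A were high, the falls of Psma1, Psma2, Psma7, Psmb1 and Psmb3 had adjusted p of 0.0582, 0.177, 0.307, 0.287 and 0.324. They were also lost without either day 30 sample. Psma1 was lost too without day 20 sample 2 (0.0528), while Psma2, Psma7 and Psmb3 were lost without any sample of days 6 and 35, Psma7 and Psmb3 also of days 8, 10 and 56, and Psmb3 of day 14, at adjusted p of 0.0503 to 0.0547. Psmf1 kept its call without any 1 sample, with adjusted p up to 0.00161.

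Genes that build, tune or feed the proteasome were taken from a list of 30, of which 21 passed the signal filter. From premeiotic to spermatid days 7 rose and 10 fell, with a median of -0.18, against 24.7% higher, 42.2% lower and a median of -0.24 among all genes. Pomp, which matures the beta ring, changed by -0.83 ± 0.14 (adjusted p = 5.80e-05), in the direction of most core subunits. The deubiquitinases bound to the 19S particle parted: Uchl5 rose by 1.04 ± 0.12 (adjusted p = 4.55e-07) and Usp14 changed by -1.17 ± 0.13 (adjusted p = 2.69e-07). Akirin2, which brings proteasomes into the nucleus, rose by 1.64 ± 0.12 (adjusted p = 1.05e-09). Zfand5, a proteasome-binding stimulator of degradation, changed by -1.77 ± 0.13 (adjusted p = 1.24e-09).

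The factors that drive proteasome gene expression in other cells were lower on spermatid than on premeiotic days, and Ngly1 and Ddi1 were higher. Nfe2l1, the factor that restores proteasome subunits after inhibition, changed by -0.50 ± 0.09 (adjusted p = 0.000115), and its relative Nfe2l2 by -1.41 ± 0.12 (adjusted p = 7.55e-09). Ngly1, which removes glycans from the Nfe2l1 product, rose by 3.27 ± 0.16 (adjusted p = 3.07e-12). Ddi1, a protease related to the one that cleaves that product, rose by 5.44 ± 0.17 (adjusted p = 1.08e-14). Its relative Ddi2 did not pass the signal filter. These are RNA signals, and no protein or activity was measured.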

How the data were processed

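The values are the authors' deposited linear signal intensities, scaled to a mean signal of 125 per the labels. The software that made them is not given in the sources used here. After leaving out 2% of probe sets at each end, array means were 125.02 to 125.1. Genes were named from the platform annotation. Of 36899 probe sets, 198 were controls, 29131 named 1 gene, 724 several and 6846 none. Probe sets that reached 50 on 2 or more of their 22 arrays were kept, and a gene is represented by its brightest.

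Each array type was fitted alone in limma 3.58.1 under R 4.3.3 (lmFit on 11 day means, eBayes with a variance trend, 11 residual degrees of freedom) on log2(signal + 16), with two-sided tests and Benjamini-Hochberg adjustment over 13472 genes within each comparison. Days have equal weight in a phase. Full values are given for members called with 2-fold in a phase comparison or called in a step, and for the called extremes of each role, and a few others were named after their values were seen. Members, role groups and lists (other proteasome pathway genes, antigen presentation genes and cell markers) were chosen with earlier results of these data known. The fit was tested on simulated data, in which 73, 63 and 64 genes were changed by 1.5, 2 and 4-fold on the spermatid days. From premeiotic to spermatid days 39.7%, 79.4% and 98.4% of these were called in the right direction. Changes of 2-fold or less can thus be missed. Far fewer genes changed in the simulation than were called in the data, so these shares do not carry over directly. Groups of 2 samples are too small for a test for outlying samples. The sensitivity of each call was computed under other pseudocounts, filters, scalings and probe sets, with a replicate block, and without single samples or days.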

Additional observations from a re-analysis of the deposited data

How the results depend on the processing

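The number of members called lower between premeiotic and meiotic days was small and moved most: 2 as reported, 5 with quantile normalization, 1 with scaling to the median, 4 without day 0, 5 without days 0 and 20 (added after seeing the data), and 1 to 5 with 1 sample left out. It was 5 without day 0 sample 2, 4 without day 6 sample 2, day 18 sample 1 or day 20 sample 1, and 1 without sample 1 of days 0, 3, 6, 8 or 10 or sample 2 of days 14 or 18. With the replicate number as a block it was also 5, and the other phase counts of members stayed within 1.5 times, while all genes called rose from 5564 to 5886, 6280 to 6591 and 9014 to 9216. Deviations of same-numbered samples correlated over 0.1 in 28, 34 and 23 of 55 pairs of days on types A, B and C. The median correlations were 0.104, 0.127 and 0.065 and the highest 0.547, 0.388 and 0.292. The labels do not say what the numbers share, and the reported fit has no term for them. An effect common to samples of the same number is therefore not removed from the reported values. Members called higher from premeiotic to spermatid days numbered 13 with scaling to the median. Requiring 2-fold left 3 higher and 1 lower into meiotic days, 4 and 4 from there to spermatid days, and 8 and 8 from premeiotic to spermatid days. Among called values, signs turned only with the choice of probe set. Without suffixed probe sets Psmc3 gave -0.18, -0.0048 and -0.19 in the 3 phase comparisons. The second brightest probe set of Psme4 gave -0.0308, -0.0263 and -0.0571, and -0.76 from day 20 to 30, and that of Psmf1 gave -0.12 from meiotic to spermatid days and -0.0076 from day 20 to 30. Psmb4 gave 0.32 and 0.43 and Psmd10 0.25 under both settings. The cause was not tested. Over all settings run, 6 of 12 calls into meiotic days, 15 of 29 from there to spermatid days and 18 of 30 from premeiotic to spermatid days were kept throughout. Signals under 50, as in some Psmb8 and most Psmc4 samples, limit precision.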
